A study of Mus musculus with 23 samples.

Results

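Skipped exons whose length is a whole number of codons can be left out of a transcript without moving the reading frame downstream, and 54 such exons in 51 genes were listed as differing in mouse skeletal muscle after a change of diet or after exercise. They were chosen by event type and length, outside 8 genes that the selection leaves out (Neb, Lss, Mvk, Dtnb, Ank1, Hectd2, Rnf111 and Pcgf5). Each is a skipped exon in the authors' deposited table, with a length divisible by 3 and both ends counted. The choice was made with earlier results of these data known. The whole table holds 265 entries for 252 distinct events, so these exons make up 54 of 252. The exon of Gopc was listed under both diets, which gives 55 entries, and the other 53 exons were listed in 1 comparison each. Over all 126 skipped exons of the table, with the 8 genes included, 6 were listed in more than 1 comparison. The 8 genes left out account for 23 further frame-keeping entries, of which 16 are exons of nebulin (Neb). Among them, Rnf111 (63 nucleotides) and Pcgf5 (60 nucleotides) also had entries of equal length under both diets, all with lower inclusion. Dtnb (90 nucleotides) had entries of equal length under both diets with higher inclusion, as did Neb (108 nucleotides).

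Alternative splicing was measured by RNA sequencing of skeletal muscle from 23 male mice of 2 strains. Mice of the diabetes-prone strain NZO/HIBomDife were fed ad libitum (5 mice), put on intermittent fasting (5 mice) or put on caloric restriction (3 mice), and both diets were compared with the same ad libitum mice. C57BL/6J mice, which do not develop diabetes on a standard diet, were sedentary (5 mice) or exercised (5 mice). Ages, the length of each intervention and the muscle taken are not given in the labels used here.

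Each entry has 1 inclusion level per group, the estimated share of transcripts that contain the exon on a scale from 0 to 1, as the authors' deposited value for that group. There is no level per mouse, so no standard deviation or test over mice can be given, and the read depth behind each level is unknown. Each listed event carries the authors' probability of a difference, at least 0.9, and an absolute difference of at least 0.2. Levels and probabilities given below are all from the authors' deposited table. Both limits were met by every event in the table, so the levels below describe events already selected for their size. An exon with a control level above 0.8 could be listed as lower and not as higher, and 16 of the 55 entries were of this kind. The 2 entries with a control level below 0.2 could be listed as higher and not as lower.

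Most mammalian exons are recognised by the spliceosome across their own length, with splice sites on both sides, and regulators bound near those sites decide how often an exon is used. When an exon keeps the frame, its inclusion and its skipping can both give full proteins that differ by an internal stretch, and in striated muscle such exons are known to tune sarcomere proteins, ion channels, adaptors and trafficking proteins. When an exon shifts the frame, skipping often leads to an early stop codon and decay of the transcript. A length divisible by 3 is a necessary sign of the first kind and not a sufficient one. Whether each exon here lies in coding sequence, and whether it holds a stop codon in frame, was not determined.

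**Figure D1:**
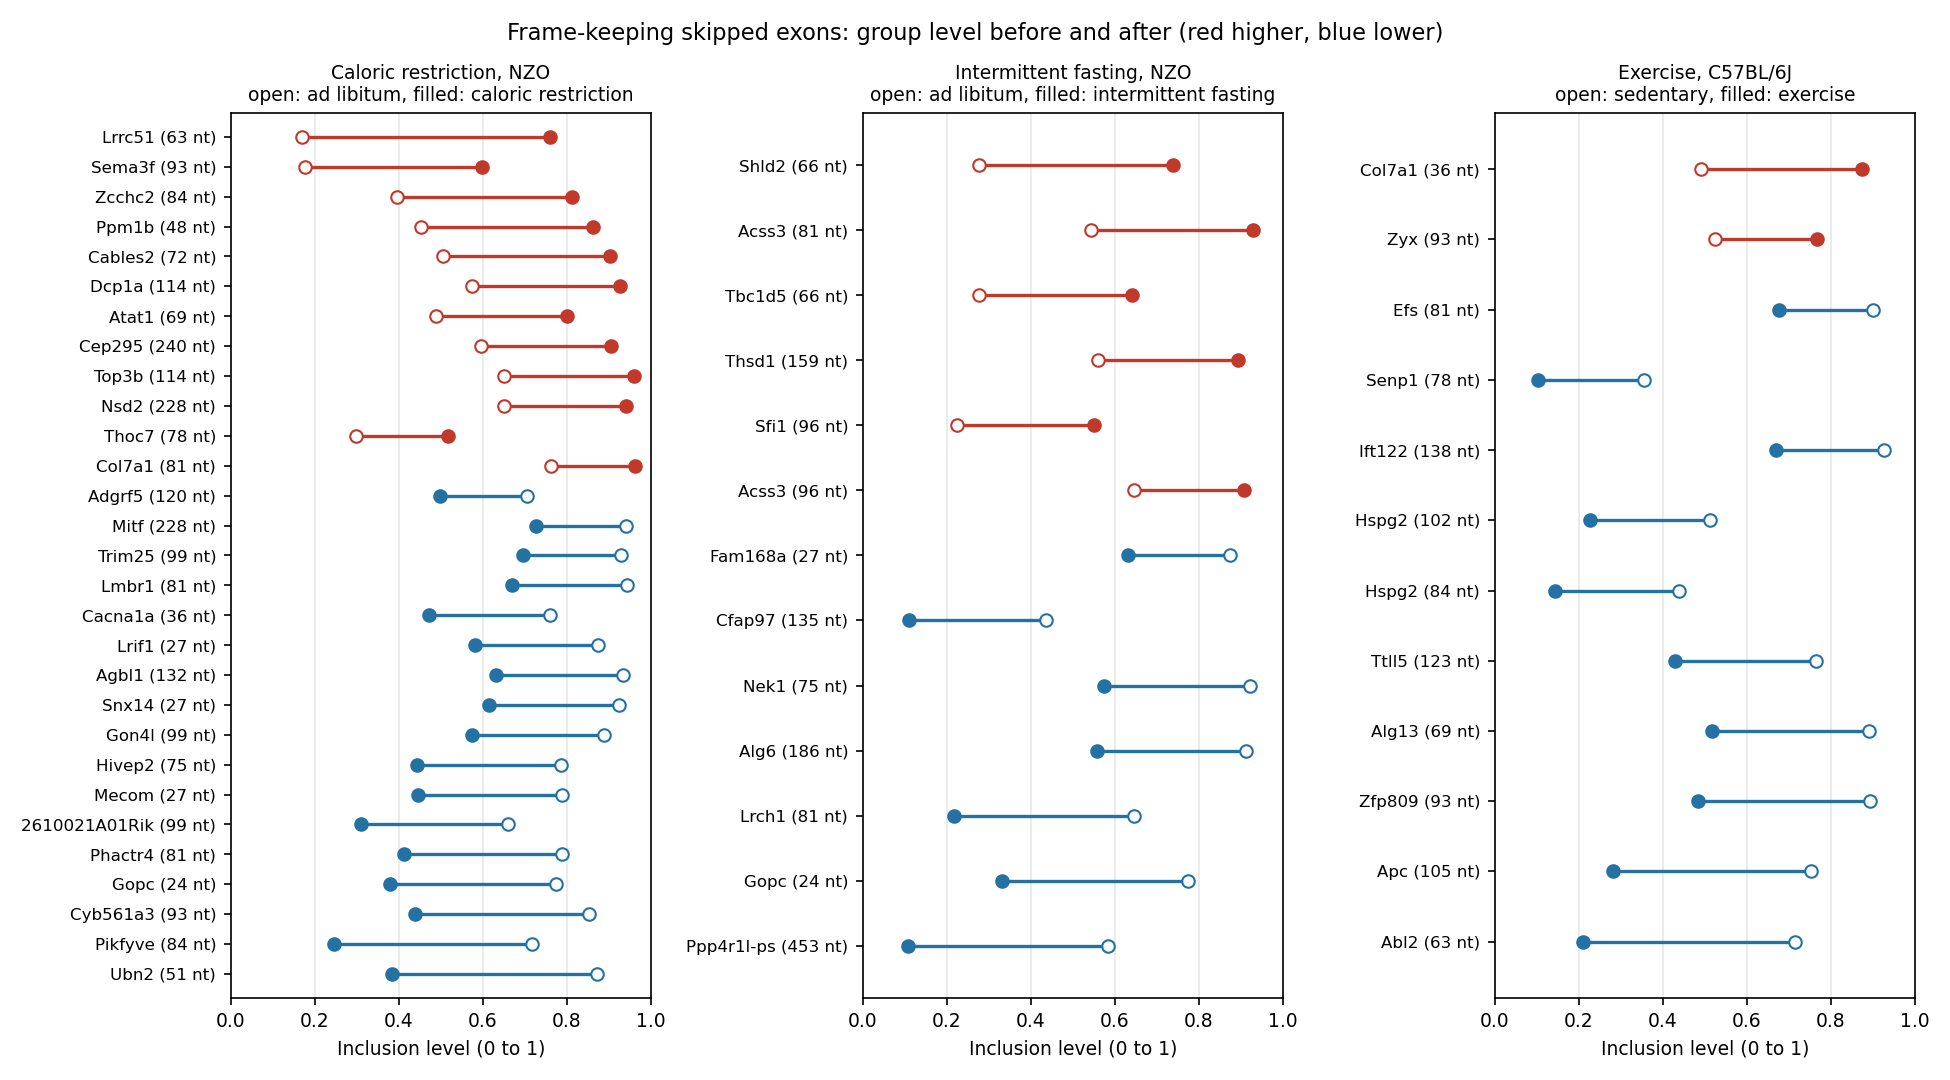
Inclusion level of 54 of the 55 entries in the control group (open circle) and the treated group (filled circle), 1 panel per comparison, with gene and exon length on the vertical axis. Red marks higher and blue lower inclusion in the treated group. Over all 55 entries, 12 of 30 were higher under caloric restriction, 6 of 13 under intermittent fasting and 2 of 12 after exercise.

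Caloric restriction gave 30 of the 55 entries, intermittent fasting 13 and exercise 12. Under caloric restriction 12 exons were included more often and 18 less often than in ad libitum mice, so 40.0% were higher (95% exact confidence interval 22.7% to 59.4%), beside 52.6% of all 114 events listed in that comparison. Under intermittent fasting 6 were higher and 7 lower, or 46.2% higher (19.2% to 74.9%), beside 39.2% of all 79 listed events. After exercise 2 were higher and 10 lower, or 16.7% higher (2.09% to 48.4%), beside 48.6% of all 72 listed events. These intervals count listed exons and do not cover variation between mice. The exons that shift the frame, with the same 8 genes left out, were higher in 7 of 17, 5 of 15 and 8 of 17 entries in the same order. The difference between frame-keeping and frame-shifting exons was not tested.

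The shares depend on which exons are counted. At a probability of at least 0.95, 4 of 8 entries were higher under caloric restriction, 2 of 4 under fasting and 1 of 4 after exercise. The authors' confidence class was 1 for 47 of the 55 entries and 2 for 8. Class 2 included Cables2, Phactr4, Dcp1a and Nsd2 under caloric restriction, and Alg13, Ttll5 and Ift122 after exercise. Within class 1, 9 of 25 entries were higher under caloric restriction, 6 of 13 under fasting and 2 of 9 after exercise. When the 8 genes are put back, 22 of 42 frame-keeping entries were higher under caloric restriction (52.4%). The Neb entries added there all had control levels below 0.2 and could be listed as higher alone. For exercise, 7 of 17 frame-keeping entries were then higher (41.2%), because all 5 added entries, which are Neb exons, were higher. These 5 had sedentary levels of 0.052 to 0.074, so they too could be listed as higher alone. Of the 12 exercise entries, 4 had a sedentary level above 0.8 and so could be listed as lower and not as higher. Among the other 8, 2 were higher and 6 lower. The same restriction held for 9 entries under caloric restriction and 3 under fasting. Where either direction was open, 10 exons were higher and 9 lower under caloric restriction, and 6 were higher and 4 lower under fasting. Over all listed events with either direction open, 35 were higher and 30 lower under caloric restriction. These counts were 27 and 31 under fasting, and 22 and 24 after exercise. For the frame-shifting exons they were 6 and 4, 5 and 5, and 8 and 5 in the same order.

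**Figure D2:**
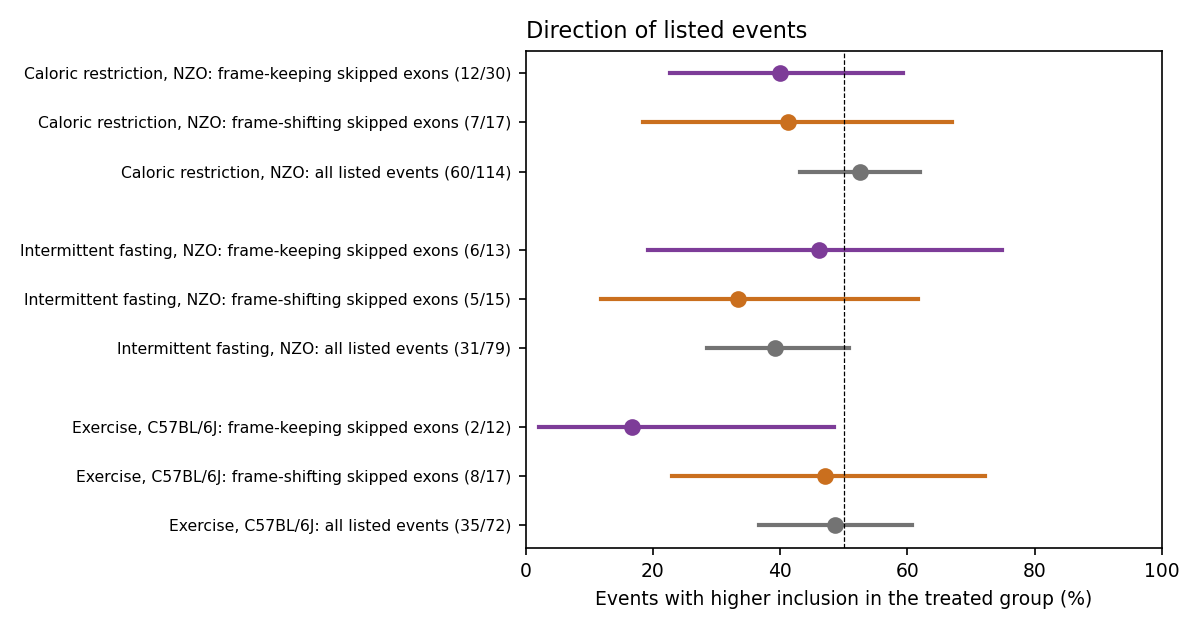
Percentage of listed events with higher inclusion in the treated group, for the frame-keeping skipped exons, the frame-shifting skipped exons and all listed events of each comparison. Points are shares, lines are 95% exact (Clopper-Pearson) intervals over events, the dashed line marks an even division, and the frame-keeping exons in exercised muscle are the lowest point, at 16.7%.

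The median sizes of the differences were close to those of all listed events under fasting and exercise, and somewhat lower under caloric restriction. All listed events include the members themselves. The median absolute difference in inclusion was 0.313 for caloric restriction, 0.355 for fasting and 0.314 for exercise, beside 0.352, 0.355 and 0.315 over all listed events. In 28 of the 55 entries the level crossed 0.5, so that the more frequent form of the transcript at that exon changed between the groups. This was the case in 16 of 30 entries under caloric restriction, 6 of 13 under fasting and 6 of 12 after exercise. Over all listed events it was the case in 60 of 114, 48 of 79 and 36 of 72, so a crossing was not particular to these exons. In the remaining entries the same form stayed the more frequent one.

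The members were short, as internal exons usually are. Their lengths ran from 24 to 453 nucleotides with a median of 82.5, and 39 of 54 were no longer than 100 nucleotides. The frame-shifting skipped exons had a median of 95 nucleotides, from 25 to 494. The 5 shortest members were the exon of Gopc, of 24 nucleotides or 8 codons, and those of Lrif1, Mecom, Snx14 and Fam168a, of 27 nucleotides or 9 codons each. All 5 had lower inclusion in the treated group in each comparison that listed them (6 of 6 entries), while the 49 entries of longer exons were divided into 20 higher and 29 lower. Lrif1, Snx14 and Fam168a had control levels above 0.8 and could not have been listed as higher. Gopc is counted under both diets, against the same ad libitum mice. The 49 longer entries were not limited to those open in both directions, and the difference between short and longer exons was not tested. Exons this short give splicing factors little room to bind, and in neurons they form a known class of coordinately used microexons.

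**Figure D3:**
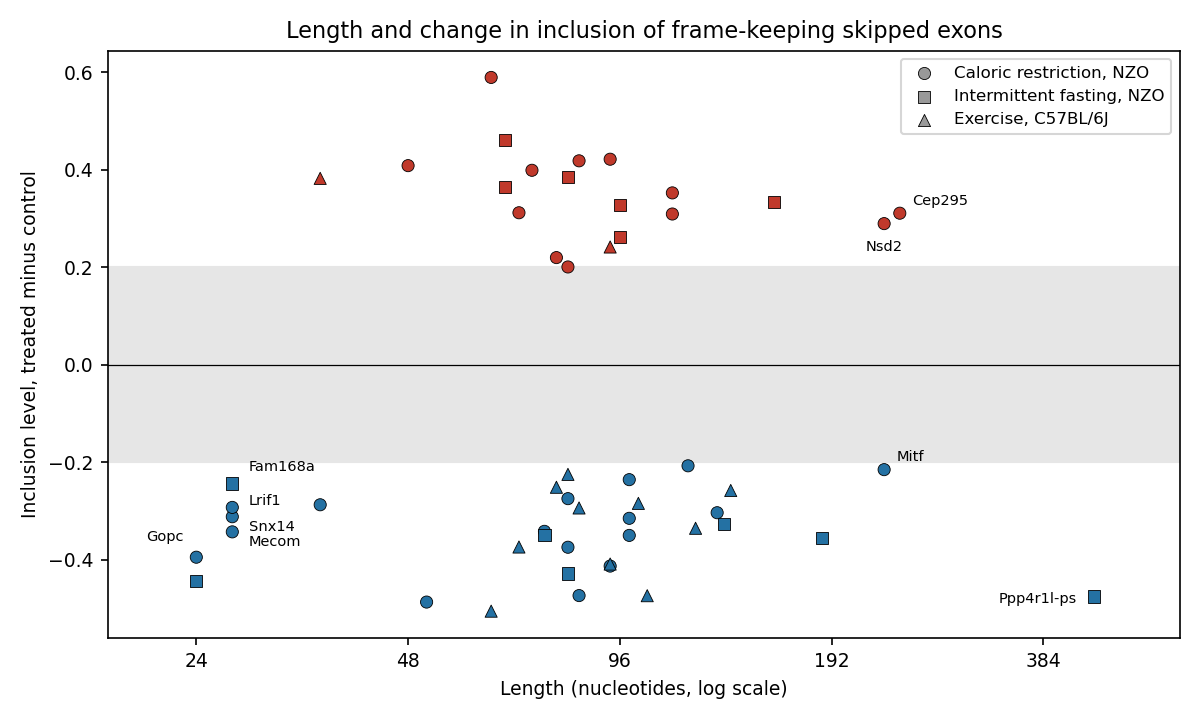
Exon length in nucleotides (log scale) against the difference in inclusion level, treated minus control, for 54 of the 55 entries. Circles are caloric restriction, squares intermittent fasting and triangles exercise, red is higher and blue lower, and the grey band from -0.2 to 0.2 holds no listed event. The 5 shortest exons, at 24 and 27 nucleotides, all lie below the band.

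Genes of membrane trafficking and of endosomal and lysosomal membranes, grouped by hand, contributed 5 exons with 6 entries. Of these entries 5 were lower, beside 35 of all 55. Gopc is counted under both diets. The gene list of vesicle trafficking holds 3 of these genes (Gopc, Snx14 and Tbc1d5), with 4 entries, 3 lower and 1 higher. The exon of Gopc, a Golgi protein with a PDZ domain that directs cargo to the cell surface or to lysosomes (chr10:52357342-52357365 of mm10, minus strand), had a level of 0.774 in ad libitum mice, against 0.380 under caloric restriction, with a probability of 0.952. In the fasting comparison its levels were 0.775 and 0.331, with a probability of 0.976. The exon thus went from the more frequent to the less frequent form under both diets, against control levels that come from the same ad libitum mice. It was not listed after exercise. The exon of Snx14, a sorting nexin of the endoplasmic reticulum and endosomes (chr9:88400723-88400749), had levels of 0.925 in ad libitum and 0.614 in calorie-restricted mice, with a probability of 0.918.

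The largest difference in this hand-made group was in Pikfyve, the lipid kinase that makes the phosphoinositide of late endosomes and lysosomes. Its exon of 84 nucleotides (chr1:65264347-65264430, plus strand) had a level of 0.718 in ad libitum mice, against 0.245 under caloric restriction, with a probability of 0.937. An exon of 93 nucleotides in Cyb561a3, an iron-reducing cytochrome of lysosomal membranes (chr19:10578982-10579074), had levels of 0.852 and 0.439 in the same comparison, with a probability of 0.906. Tbc1d5, a Rab GTPase-activating protein that acts on retromer-coated endosomes, went the other way: its exon of 66 nucleotides (chr17:50795926-50795991) had a level of 0.276 in ad libitum mice and 0.640 in fasted mice, with a probability of 0.955. The 4 exons of this group listed under caloric restriction were lower, beside 54 of all 114 events listed there. Of the 4, 2 (in Snx14 and Cyb561a3) had control levels above 0.8 and could not have been listed as higher. Fasting listed 1 lower and 1 higher.

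Genes of microtubules, centrosomes and cilia made up 9 exons, 3 higher and 6 lower, beside 20 higher and 35 lower over all 55 entries. Enzymes that modify tubulin appeared in 2 of the 3 comparisons. Atat1, the acetyltransferase of alpha-tubulin, had levels of 0.488 in ad libitum and 0.7996 in calorie-restricted mice for an exon of 69 nucleotides. Agbl1, a carboxypeptidase that trims glutamates from proteins, had levels of 0.934 and 0.631 for an exon of 132 nucleotides in the same comparison. Ttll5, a ligase that adds glutamate chains to tubulin, had levels of 0.765 in sedentary and 0.430 in exercised muscle for an exon of 123 nucleotides (chr12:86024220-86024342), with a probability of 0.919.

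Cep295, which is needed to build centrioles, carried one of the longest members, of 240 nucleotides (chr9:15325507-15325746), going from 0.595 in ad libitum mice to 0.905 in calorie-restricted mice with a probability of 0.933. Sfi1, a centrin-binding protein of centrioles, had levels of 0.223 ad libitum and 0.551 under intermittent fasting for an exon of 96 nucleotides. Under fasting, Nek1, a kinase of cilia and DNA repair, went from 0.923 to 0.574. Cfap97, a cilia-associated protein (chr8:46164762-46164896), went from 0.436 to 0.110 in the same comparison, with a probability of 0.939. Ift122, a subunit of the complex that carries cargo back along the cilium, went from 0.926 in sedentary to 0.668 in exercised muscle. Agbl1, Nek1 and Ift122 had control levels above 0.8 and could be listed in the lower direction alone.

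Apc, the scaffold that destroys beta-catenin in the Wnt pathway and also binds microtubule ends, had the second largest difference among the 12 exercise entries. Its exon of 105 nucleotides was included at 0.754 in sedentary and at 0.280 in exercised muscle, with a probability of 0.905, close to the authors' limit of 0.9.

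Actin and adhesion genes described here gave 4 exons, 1 higher and 3 lower, beside 20 higher and 35 lower over all 55 entries. The largest difference among the 12 exercise entries was in Abl2, a tyrosine kinase that also binds actin filaments. Its exon of 63 nucleotides (chr1:156620839-156620901, plus strand) was the more frequent form in sedentary muscle, at 0.715, and went to 0.210 in exercised muscle, with a probability of 0.969. Zyx encodes zyxin, a focal adhesion and stress fibre protein that responds to tension, and held 1 of the 2 exons with higher inclusion after exercise: the exon of 93 nucleotides (chr6:42351270-42351362) had levels of 0.525 and 0.766, with a probability of 0.945. Efs, an adaptor of the Cas family that Src kinases phosphorylate, had levels of 0.901 and 0.677 for an exon of 81 nucleotides (chr14:54921101-54921181), with a probability of 0.933, the smallest difference among the exercise entries. From 0.901 it could not have been listed as higher.

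In NZO mice, Phactr4, which binds actin and a protein phosphatase, had levels of 0.788 in ad libitum and 0.413 in calorie-restricted mice for an exon of 81 nucleotides, and so went from the more frequent to the less frequent form.

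Matrix and cell surface genes gave 8 exons, 4 higher and 4 lower, beside 20 higher and 35 lower over all 55 entries. They held 2 of the 3 genes with more than 1 member. Col7a1 encodes collagen VII, the protein of the anchoring fibrils that tie basement membranes to the tissue beneath. An exon of 81 nucleotides (chr9:108979799-108979879, plus strand) had levels of 0.763 in ad libitum and 0.964 in calorie-restricted mice, with a probability of 0.941. This was the smallest difference of all entries, at 0.2004. Another exon of 36 nucleotides, 6571 nucleotides upstream (chr9:108973192-108973227), had levels of 0.492 in sedentary and 0.874 in exercised muscle, with a probability of 0.953. Both Col7a1 exons had higher inclusion in the treated group, in different strains and with separate controls.

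Hspg2 encodes perlecan, the large heparan sulfate proteoglycan of basement membranes, which in muscle surrounds fibres and anchors acetylcholinesterase at the neuromuscular junction. Its exons of 102 nucleotides (chr4:137524355-137524456) and 84 nucleotides (chr4:137526338-137526421) lie 1881 nucleotides apart on the plus strand. The first was included at 0.512 in sedentary and at 0.228 in exercised muscle, with a probability of 0.940. The second had levels of 0.438 and 0.145, with a probability of 0.927. Both were lower after exercise by nearly the same amount, 0.284 and 0.294, and their levels come from 1 gene in the same mice, so they are not independent.

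The other surface genes were listed once each. Sema3f, a secreted guidance cue of axons and vessels (chr9:107691356-107691448), had levels of 0.177 in ad libitum and 0.599 in calorie-restricted mice for an exon of 93 nucleotides, with a probability of 0.977. From 0.177 it could not have been listed as lower. Adgrf5, an adhesion G-protein-coupled receptor, had levels of 0.706 and 0.499 for an exon of 120 nucleotides (chr17:43439676-43439795), with a probability of 0.971. The Adgrf5 difference was among the 3 smallest under caloric restriction. Cacna1a, the pore subunit of the calcium channel that triggers transmitter release at the neuromuscular junction, had levels of 0.760 and 0.473 for an exon of 36 nucleotides. Thsd1, a membrane protein with a thrombospondin domain, had levels of 0.561 ad libitum and 0.894 under fasting for an exon of 159 nucleotides.

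Chromatin, transcription and DNA repair genes formed the largest named group, with 10 exons. Under caloric restriction 8 were listed, 2 higher and 6 lower, beside 12 higher and 18 lower over all 30 entries there. Of those 6, the exons of Ubn2, Gon4l, Lrif1 and Mitf had control levels above 0.8 and could be listed as lower alone, and where either direction was open 2 exons were higher and 2 lower. The largest difference among them was in Ubn2, a subunit of a histone chaperone complex: its exon of 51 nucleotides (chr6:38489254-38489304) had levels of 0.871 in ad libitum and 0.385 in calorie-restricted mice, with a probability of 0.939. Mecom, which encodes the zinc finger transcription factor EVI1, had levels of 0.788 and 0.446 for its exon of 27 nucleotides (chr3:29972680-29972706), with a probability of 0.951. Hivep2, a large zinc finger transcription factor, had levels of 0.786 and 0.444 for an exon of 75 nucleotides (chr10:14004201-14004275), with a probability of 0.933. These 3 exons all crossed 0.5 and became the less frequent form.

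The exons of Gon4l, a nuclear cofactor of transcription (99 nucleotides, 0.889 and 0.574), Lrif1, a protein of heterochromatin (27 nucleotides, chr3:106733116-106733142, 0.875 and 0.582 with a probability of 0.908), and Mitf, a transcription factor of melanocytes and lysosomal genes (228 nucleotides, 0.941 and 0.726), were lower but stayed above 0.5. The Mitf difference of 0.215 had a probability of 0.905 (chr6:97993127-97993354). The 2 higher exons were those of Nsd2, a histone methyltransferase (228 nucleotides, chr5:33871407-33871634, 0.652 and 0.941 with a probability of 0.939), and Top3b, a topoisomerase (114 nucleotides, 0.651 and 0.960). Under fasting, Shld2, a subunit of the shieldin complex of double-strand break repair, had levels of 0.278 and 0.738 for an exon of 66 nucleotides (chr14:34269471-34269536), with a probability of 0.924, the largest difference toward higher inclusion among the fasting entries. After exercise, Zfp809, a zinc finger protein that silences retroviral DNA, had levels of 0.893 and 0.484 for an exon of 93 nucleotides (chr9:22236202-22236294), with a probability of 0.909.

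Both exons of RNA export and decay genes were higher under caloric restriction, beside 60 of all 114 events listed there. Thoc7, a subunit of the complex that couples transcription to mRNA export, had levels of 0.298 and 0.518 for an exon of 78 nucleotides. Dcp1a, a cofactor of mRNA decapping, had levels of 0.574 and 0.926 for an exon of 114 nucleotides. Of the list of 76 RNA-binding and splicing factors, 5 genes had a listed event. Of these 5, 0 held a frame-keeping exon, beside 51 of all 221 genes in the table.

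Enzymes that modify proteins gave 5 exons, 1 higher and 4 lower, beside 20 higher and 35 lower over all 55 entries. Of the 4 lower, Trim25, Alg6 and Alg13 had control levels above 0.8 and could be listed as lower alone. The higher one was in Ppm1b, a serine/threonine phosphatase (chr17:85023032-85023079), whose exon of 48 nucleotides had levels of 0.454 in ad libitum and 0.862 in calorie-restricted mice, with a probability of 0.95. Trim25, a ubiquitin ligase of antiviral signalling, had levels of 0.930 and 0.695 in the same comparison. Senp1, a protease that removes SUMO from its targets (chr15:98061950-98062027), had levels of 0.354 in sedentary and 0.103 in exercised muscle for an exon of 78 nucleotides, with a probability of 0.918. Of the genes for the early steps of N-linked glycosylation in the endoplasmic reticulum, Alg6, a glucosyltransferase, had levels of 0.912 ad libitum and 0.557 under fasting, and Alg13, part of the enzyme that adds the second sugar, had levels of 0.891 sedentary and 0.518 exercised (chrX:144355584-144355652, probability 0.980).

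The remaining exons belong to genes of other or less well known roles. Lrrc51, a leucine-rich repeat protein, had the largest difference among the 55 entries: its exon of 63 nucleotides (chr7:101921504-101921566, minus strand) went from 0.170 ad libitum to 0.759 under caloric restriction, with a probability of 0.992. From 0.170 it could not have been listed as lower. Acss3, a short-chain acyl-CoA synthetase of mitochondria, had 2 exons with higher inclusion under fasting. The exon of 81 nucleotides (chr10:107023857-107023937, minus strand) had levels of 0.544 and 0.930 with a probability of 0.986, and the exon of 96 nucleotides (chr10:107023654-107023749) had levels of 0.645 and 0.907 with a probability of 0.905. Only 107 nucleotides separate them, and the 2 levels come from the same mice.

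Higher inclusion under caloric restriction was also listed for Zcchc2, a zinc finger protein (84 nucleotides, chr1:106018219-106018302, 0.395 and 0.813 with a probability of 0.936), and Cables2, a protein related to cell cycle kinases (0.505 and 0.903, 72 nucleotides). Lower inclusion was listed for Lmbr1, a membrane protein (0.944 and 0.670, 81 nucleotides), and for 2610021A01Rik (0.659 and 0.310, 99 nucleotides), which was not matched in the gene annotation. Under fasting, Lrch1, a leucine-rich repeat protein with a calponin homology domain (chr14:74794911-74794991), had levels of 0.646 and 0.218 with a probability of 0.914. Fam168a had levels of 0.875 and 0.631 for its exon of 27 nucleotides (chr7:100818736-100818762), with a probability of 0.902.

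The largest difference among the 13 fasting entries and the longest exon were in Ppp4r1l-ps, a transcribed pseudogene. Its exon of 453 nucleotides (chr2:173594976-173595428) had levels of 0.583 ad libitum and 0.108 under fasting, with a probability of 0.995. The gene is not annotated as coding, so the length says nothing about a reading frame there, and a pseudogene may share sequence reads with its related gene, which makes the level uncertain.

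In 7 of the 51 genes the table also holds 1 other event that is not a frame-keeping exon. In Lrif1 the frame-keeping exon directly adjoins a listed retained intron (chr3:106733143-106733336), with 0 nucleotides between them, and both were lower under caloric restriction, the intron going from 0.897 to 0.382. Whether both entries come from 1 choice between transcripts was not determined. In Lrrc51 an alternative 5' splice site of 14 nucleotides was higher in the same comparison (0.147 and 0.640), as the exon was. In Alg6 a second skipped exon, of 65 nucleotides and 1335 nucleotides upstream, was also lower under fasting (0.828 and 0.364). Together these exons measure 251 nucleotides, which is not divisible by 3, so a transcript that lacks both would not keep the frame even though the member alone would.

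In the other 4 genes the second event belonged to another comparison. Cep295 had a retained intron with higher inclusion under fasting (0.219 and 0.763), and its exon was higher under caloric restriction. Hivep2 had a frame-shifting exon of 82 nucleotides that was lower after exercise (0.583 and 0.183), and Zfp809 one of 110 nucleotides that was lower under caloric restriction (0.913 and 0.692). Ppp4r1l-ps had an exon of 95 nucleotides that was lower under caloric restriction (0.821 and 0.189). The caloric restriction and fasting levels of Cep295 and Ppp4r1l-ps are set against the same ad libitum mice.

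Of all 221 genes in the table, 51 hold a frame-keeping exon described or counted here (23.1%). Among the gene lists, 4 trafficking genes had a listed event of any type and 3 of them held a member (Gopc, Snx14 and Tbc1d5). For the cytoskeleton list this was 2 of 4 genes (Cep295 and Ttll5), for kinases and GTPase regulators 2 of 3 (Abl2 and Tbc1d5), and for transcription and chromatin 1 of 5 (Hivep2). No list was tested. None of 48 markers of endothelial, immune, fat, fibroblast, Schwann, satellite and smooth muscle cells had a listed event of any type. The table holds no expression levels, so the share of each cell type in the samples could not be examined, and a change in a bulk inclusion level cannot be told apart from a change in which cells supply the transcript.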

How the data were processed

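Skeletal muscle RNA of 23 mice was sequenced, and splicing was analysed with Whippet and rMATS, per the labels' design text. Which tool gave which value, the aligner, read depth and the pooling of mice are not stated in the sources used here. Positions refer to mm10, as named in the submitters' processing notes. Per the file headers, the authors deposited for each event the inclusion level of each group (a fraction between 0 and 1), a difference of these levels, and scores for probability and confidence class. That difference was deposited as control minus treated (largest gap to the levels 1e-05) and was turned here.

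Groups came from the intervention label. Positions were read as counted from 1, since all 15 distinct Neb skipped exons are then divisible by 3. Of 51 genes, 50 matched RefSeq (GRCm38.p6), 49 of them protein-coding, and all 53 exons of matched genes lie inside the gene span. Exon sequences were not used here. Counts, medians and exact intervals were computed with Python 3.11.15, pandas 2.3.3 and scipy 1.17.1. The counts of members and of higher entries were tested on simulated data, the medians and intervals were not. Figures were drawn with matplotlib 3.10.9. No test over events was run.

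Members and gene lists were chosen with earlier results of these data known, and role groups were assigned by hand to the member genes. One exon, counted in all totals, is not reported here by itself. The other members are named, with position and probability for the largest and smallest differences, repeated genes, the shortest and longest exons and list genes. Alternatives are given in the closing section.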

Additional observations from a re-analysis of the deposited data

How the results depend on the processing

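Of 72 values recomputed under 6 alternatives, 59 stayed close to those reported (counts within 1.5 times, shares and medians within the 95% interval) and 13 moved. At a probability of at least 0.95, 8 exons were left for caloric restriction, 4 for fasting and 4 for exercise. Of the fasting skipped exons, 80.0% then kept the frame (4 of 5, interval 28.4% to 99.5%), in place of 46.4% (13 of 28). At an absolute difference of at least 0.3, 6 exercise exons were left. Taking length as end minus start selects a different set of exons: 10 under caloric restriction (21.3% of skipped exons in place of 63.8%, median difference 0.379), 7 under fasting (25.0% in place of 46.4%, median 0.319, 14.3% higher) and 8 after exercise (50.0% higher). At the stricter probability 50.0% were higher for caloric restriction, 50.0% for fasting and 25.0% for exercise, so lower inclusion was no longer the more frequent direction under the diets. Putting back the 8 genes gave 52.4% higher under caloric restriction, above rather than below an even division. The Neb entries put back there had control levels below 0.2 and could be listed as higher alone. No paired analysis was possible because mice are neither paired by the labels nor given levels of their own, and for the same reason no mouse could be left out. The authors' lists hold called events only, so exons that did not differ are not analysed here.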

Other observations

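The place of the frame-keeping exons within their genes varied widely. Measured from the 5' end of the RefSeq gene span to the centre of the exon, the position ranged from 8.16% to 98.6% with a median of 63.8%, and 5 exons lay in the first, 25 in the middle and 23 in the last of 3 equal parts. Of the 54 exons, 33 lie on the plus and 21 on the minus strand.

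A length of 81 nucleotides was shared by 6 exons, those of Acss3, Col7a1, Efs, Lmbr1, Lrch1 and Phactr4. Both Col7a1 exons, of 81 and 36 nucleotides, are divisible by 9, as are 19 of the 54 members (35.2%). Collagens are built of a repeated triplet of residues, but whether these exons lie in that part of the protein was not determined.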
